A study of Arabidopsis thaliana with 6 samples.

Results

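Jasmonates are defense and wound hormones of plants, and this account covers 10 *Arabidopsis thaliana* genes whose products break them down or store them in inactive form. The genes were taken by locus identifier: the cytochrome P450 genes *CYP94B1* (AT5G63450), *CYP94B3* (AT3G48520) and *CYP94C1* (AT2G27690), the amidohydrolase genes *IAR3* (AT1G51760) and *ILL6* (AT1G44350), the sulfotransferase gene *ST2A* (AT5G07010), and the jasmonate oxidase genes *JOX1* (AT3G11180), *JOX2* (AT5G05600), *JOX3* (AT3G55970) and *JOX4* (AT2G38240). They are 10 of the 36796 genes in the table of RNA-seq read counts, and 10 of the 10 passed the filter on low counts. Transcript levels were compared between *ref4-3* plants, which carry a semidominant point mutation that changes a single amino acid of MED5b in the tail module of the Mediator complex, and wild-type plants, both in the Columbia (Col-0) background. Each genotype is represented by 3 libraries, and each library by rosettes of 5 pooled plants that had not bolted. Plants were 21 days old, had been grown on soil with 16 h of light at 150 μE and 8 h of dark at 22°C after 3 days of cold treatment at 4°C, and were harvested 6 h after the light came on. The series asks whether an altered histone mark, H3K27me3, accompanies the transcript changes of *ref4-3* plants, and the counts analyzed here hold the RNA side of that question.

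The active form of the hormone is a conjugate of jasmonic acid (JA) with isoleucine, JA-Ile. It joins the F-box protein COI1 to JAZ repressors, the JAZ proteins are then degraded, and transcription factors such as MYC2 are released. Breakdown acts at several points: CYP94 enzymes oxidize the end of the JA-Ile side chain, IAR3 and ILL6 cleave the conjugates, JOX enzymes hydroxylate free JA before it is conjugated, and ST2A adds sulfate to hydroxy-JA. Many of these genes are themselves induced by jasmonate and by wounding.

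Total counts ranged from 26060005 to 32879414 per library. Levels are given as CPM, counts scaled by library size and the TMM factor, in the order of replicates 1, 2 and 3, and 3 counts correspond to 0.0912 to 0.115 CPM of the library total. Differences are log2 fold changes of *ref4-3* over wild type, tested by edgeR's quasi-likelihood method. Their standard error (SE) was calculated back from that test, as the absolute log2 fold change over the square root of the F value. The p-values were adjusted over 23050 genes (Benjamini-Hochberg), and a gene is called at an adjusted p under 0.05. In a pooled rosette, fewer cells that express a gene and less RNA per cell cannot be told apart. Leaf genes were abundant, with a sum of 5 photosynthesis genes of 24132 to 31656 CPM in *ref4-3* and 48842 to 54747 CPM in wild type. Of the 5, 3 were called lower in *ref4-3*, against 11.9% of all tested genes. Of the root markers, *CASP1* and *COBL9* lay between 0.124 and 0.611 CPM in all 6 libraries and were not tested, whereas *PYK10*, which codes for a β-glucosidase abundant in roots, reached 157, 77.6 and 154 CPM in *ref4-3* against 22.1, 21.7 and 22.9 CPM in wild type and was called higher (log2 fold change 2.54, adjusted p = 0.00249, edgeR). Of the 4 flower markers, 0 were called (edgeR; 1 had an unadjusted p under 0.05, and its exact test and DESeq2 also called 0), and their sum was 4.54 to 7.28 CPM in *ref4-3* and 7.72 to 10.7 CPM in wild type. Wild-type replicate 2 held counts on 27913 genes, against 32015 to 34884 genes in the other libraries. *REF4*, the gene that codes for MED5b, had 16.7, 18.7 and 16.8 CPM in *ref4-3* and 20.2, 26.6 and 17.9 CPM in wild type, and a point mutation need not change this level, so it does not check the labels.

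The stretches upstream of 4 of the genes are shown because they hold, near the annotated start, the letters that MYC2 and its relatives are known to bind: the G-box (CACGTG) and 2 related hexamers, CACATG and AACGTG. Each stretch is the reference sequence of TAIR10.1 (RefSeq) on the strand of the gene, read 5′ to 3′, and capitals mark the hexamer or its reverse complement (CACGTT for AACGTG).
*JOX2*, chr5:1671988-1672033, plus strand, CACATG beginning 62 bases before the start: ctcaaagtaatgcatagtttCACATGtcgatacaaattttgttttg
*CYP94C1*, chr2:11809196-11809241, plus strand, CACATG beginning 63 bases before the start: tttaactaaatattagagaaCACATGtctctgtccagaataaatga
*JOX3*, chr3:20769433-20769478, minus strand, AACGTG beginning 48 bases before the start: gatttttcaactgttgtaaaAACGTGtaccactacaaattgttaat
*JOX1*, chr3:3503852-3503897, plus strand, CACGTT beginning 45 bases before the start: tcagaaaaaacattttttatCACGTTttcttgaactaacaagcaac
*JOX1*, chr3:3503706-3503751, plus strand, G-box beginning 191 bases before the start: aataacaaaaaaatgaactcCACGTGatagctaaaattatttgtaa

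In the window of 300 bases, 250 before to 50 after the start and searched on both strands, CACATG occurred in 2 of the 10 genes (*CYP94C1* and *JOX2*) and in 12.9% of 27443 promoters. AACGTG occurred in 3 of the 10 (*JOX1*, *JOX2* and *JOX3*) and in 8.95% of all promoters. The stretches above leave out a further CACATG of *CYP94C1*, beginning 153 bases before the start, and the AACGTG of *JOX2*, beginning 8 bases after it. The G-box occurred in 1 of the 10 and in 7.68% of all promoters, and the GCC box (GCCGCC), which ethylene response factors bind, in 0 of the 10 and in 2.57% of all promoters. None of the hexamers contains another. In the 1000 bases before the start, a window added after the data had been seen, CACATG occurred in 4 of the 10 genes and 37.7% of all promoters, AACGTG in 5 and 23.8%, the G-box in 3 and 14.8%, and the GCC box in 1 and 8.44%. AACGTG stood within the 300 bases of both *JOX2*, which was called lower in *ref4-3*, and *JOX3*, which was called higher.

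Of the 10 genes, *ST2A* and *JOX2* were called lower in *ref4-3*, *JOX3* was called higher, and 7 were not called. Over all tested genes 11.9% were called lower and 8.52% higher, so 2 of 10 and 1 of 10 lie near these shares. The 3 calls also passed a fold change of 2, which 5.24% of tested genes did downward and 4.48% upward. Before adjustment, 7 of the 10 had a p under 0.05, as did 38.3% of all tested genes. The median log2 fold change of the 10 genes was -0.63, against 0.01 over all tested genes, and single values ran from -3.46 to 2.88.

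**Figure D1:**
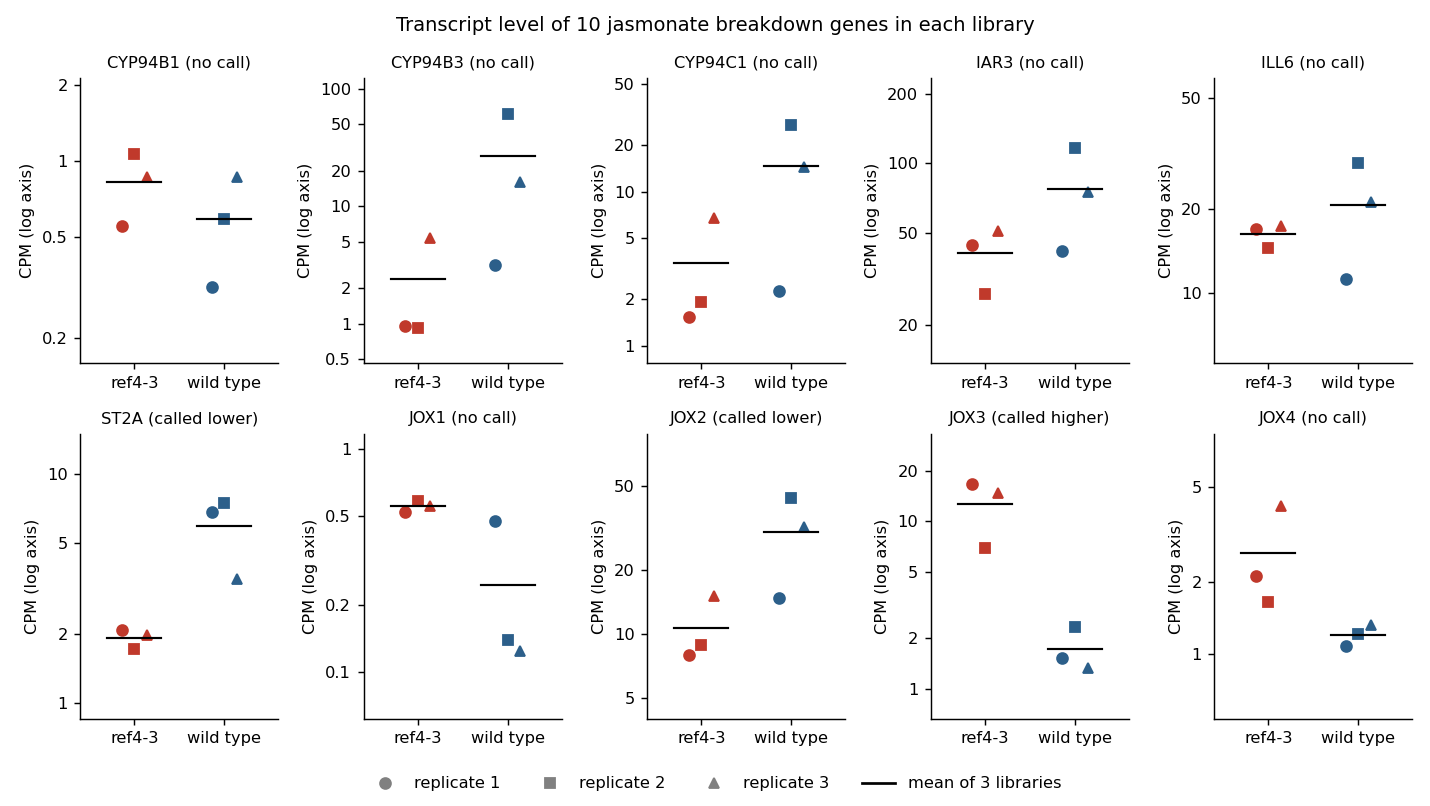
Transcript level of each of the 10 genes (y axis, CPM, log axis with its own range in each panel) in *ref4-3* (left, red) and wild type (right, blue), with a point per library, a symbol per replicate number and a line at the mean of 3 libraries. The libraries of *ST2A* (lower in *ref4-3*) and of *JOX1*, *JOX3* and *JOX4* (higher in *ref4-3*) do not overlap between genotypes, and those of the other 6 genes do.

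**Figure D2:**
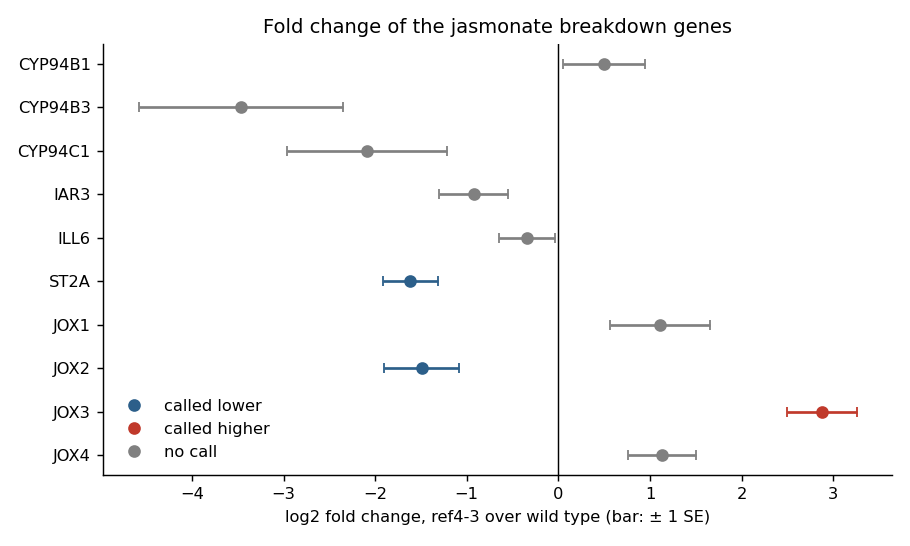
Log2 fold change of *ref4-3* over wild type (x axis, bars of 1 SE) for the 10 genes, colored by call at an adjusted p under 0.05. *JOX3* stands at 2.88 and *CYP94B3*, whose SE is the largest of the 10, at -3.46.

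The CYP94 enzymes inactivate JA-Ile itself. *CYP94B3* (chr3:17974853-17976774, minus strand, a single exon in TAIR10.1) codes for the main JA-Ile hydroxylase. It had 0.96, 0.93 and 5.39 CPM in *ref4-3* and 3.15, 61.2 and 16.2 CPM in wild type. The *ref4-3* replicates 1 and 2 lay near 1 CPM, the wild-type libraries differed by up to 19.4 times among themselves, and *ref4-3* replicate 3 lay above wild-type replicate 1, so that the groups overlap. The mean was 2.43 ± 2.57 CPM in *ref4-3* and 26.8 ± 30.4 CPM in wild type (SD, n = 3 libraries each). The log2 fold change of -3.46 ± 1.11 (SE) was not called (adjusted p = 0.0633, edgeR). The call depended on the test: edgeR's exact test gave an adjusted p of 0.0104 and DESeq2 gave 0.0292, while the adjusted p ranged from 0.0104 to 0.167 and the log2 fold change from -4.83 (without *ref4-3* replicate 3) to -2.01 (without wild-type replicate 2) over the 14 alternatives.

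*CYP94C1* (chr2:11809279-11811280, plus strand), whose product carries the oxidation on to the carboxylic acid, was likewise highest in wild-type replicates 2 and 3. It had 1.54, 1.92 and 6.78 CPM in *ref4-3* and 2.26, 27.1 and 14.3 CPM in wild type. Again *ref4-3* replicate 3 lay above wild-type replicate 1, and the log2 fold change of -2.09 ± 0.87 (SE) was not called (adjusted p = 0.123, edgeR).

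*CYP94B1* (chr5:25408821-25410725, minus strand), which codes for a second JA-Ile hydroxylase, was the lowest of the 3 per kilobase of exon in 5 of the 6 libraries. It had 0.55, 1.06 and 0.87 CPM in *ref4-3* and 0.32, 0.59 and 0.87 CPM in wild type, from 10 to 31 counts per library. The groups overlap, and the log2 fold change of 0.50 ± 0.45 (SE) was not called (adjusted p = 0.437, edgeR).

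Per kilobase of exon, the 3 *CYP94* genes summed to 1.56, 2.003 and 6.65 CPM per kb in *ref4-3* and to 2.93, 45.7 and 16.1 CPM per kb in wild type. *CYP94B3* and *CYP94C1* had 27 to 56 counts in *ref4-3* replicates 1 and 2. Neither gene was called, and the balance between them was not tested. Their ratio per kilobase was 0.649, 0.502 and 0.828 in *ref4-3*, with *CYP94C1* above *CYP94B3* in each library, and 1.45, 2.35 and 1.18 in wild type, with *CYP94B3* above *CYP94C1* in each library.

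The amidohydrolases split hormone conjugates back into their parts. *IAR3* (chr1:19199351-19201707, plus strand, 5 exons), named for its resistance phenotype on an auxin conjugate and also active on JA-Ile and its hydroxylated form, had the highest level of the 10 genes per kilobase of exon in each of the 6 libraries. It had 44.4, 27.3 and 50.7 CPM in *ref4-3* and 41.5, 116 and 74.8 CPM in wild type. Wild-type replicates 2 and 3 lay above all *ref4-3* libraries and wild-type replicate 1 did not, and the log2 fold change of -0.93 ± 0.38 (SE) was not called (adjusted p = 0.115, edgeR).

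*ILL6* (chr1:16834210-16838562, minus strand, 5 exons), which acts on the same conjugates, had 16.9, 14.5 and 17.3 CPM in *ref4-3* and 11.2, 29.3 and 21.2 CPM in wild type. Its *ref4-3* libraries lay within a narrow range inside that of wild type, and the log2 fold change of -0.34 ± 0.31 (SE) was not called (adjusted p = 0.436, edgeR). The ratio of *IAR3* to *ILL6* per kilobase was 3.32, 2.39 and 3.69 in *ref4-3* and 4.66, 5.03 and 4.46 in wild type, so *ILL6* made up more of the pair in each *ref4-3* library. Neither gene was called, and the ratio was not tested.

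*ST2A* (chr5:2174668-2176446, minus strand, a single exon) codes for the sulfotransferase that moves hydroxy-JA into its sulfated storage form. It had 2.09, 1.72 and 1.98 CPM in *ref4-3* and 6.83, 7.44 and 3.47 CPM in wild type. All *ref4-3* libraries lay below all wild-type libraries, as they did for 22.7% of tested genes, and the mean was 1.93 ± 0.19 CPM in *ref4-3* and 5.92 ± 2.14 CPM in wild type (SD, n = 3 libraries each). The level was 3.06 times lower in *ref4-3* (log2 fold change -1.61 ± 0.30 SE, adjusted p = 0.0137, edgeR). The call was lost without *ref4-3* replicate 2 (adjusted p = 0.0520) and without *ref4-3* replicate 3 (0.0608), and the range over all 14 alternatives was 3.51e-05 to 0.0608.

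The neighboring gene *ST2B* (AT5G07000), the closest relative of *ST2A* with transcripts 85.1% identical over 84.8% of the *ST2A* transcript, was also called lower. It had 1.80, 1.72 and 1.73 CPM in *ref4-3* and 6.16, 4.63 and 4.79 CPM in wild type (log2 fold change -1.57 ± 0.19 SE, adjusted p = 0.00428, edgeR). How reads that match both genes of the pair were counted is not given in the sources used here.

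The JOX enzymes are 2-oxoglutarate-dependent oxygenases that turn free JA into hydroxy-JA and so withhold the substrate of JA-Ile synthesis. The 4 genes did not move together. *JOX2* (chr5:1672070-1674770, plus strand, 2 exons), which like *CYP94C1* has a CACATG stretch shown above, had 8.03, 8.93 and 15.2 CPM in *ref4-3* and 14.9, 43.9 and 32.0 CPM in wild type. The highest *ref4-3* library lay just above the lowest wild-type library, and the mean was 10.7 ± 3.93 CPM in *ref4-3* and 30.2 ± 14.6 CPM in wild type (SD, n = 3 libraries each). *JOX2* was 2.81 times lower in *ref4-3* (log2 fold change -1.49 ± 0.41 SE, adjusted p = 0.0401, edgeR). This call was lost when any library other than wild-type replicate 1 was left out, with adjusted p-values of 0.0658 to 0.124, and was 0.00892 without wild-type replicate 1. Over all 14 alternatives the adjusted p ranged from 0.00213 to 0.124.

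*JOX3* (chr3:20766735-20769410, minus strand, 2 exons), named *JRG21* in the annotation, changed in the opposite direction. It had 16.6, 6.91 and 14.7 CPM in *ref4-3* and 1.53, 2.33 and 1.32 CPM in wild type. The lowest *ref4-3* library lay above the highest wild-type library, as for 22.5% of tested genes, and the mean was 12.7 ± 5.14 CPM in *ref4-3* and 1.73 ± 0.53 CPM in wild type (SD, n = 3 libraries each). *JOX3* was 7.35 times higher in *ref4-3* (log2 fold change 2.88 ± 0.38 SE, adjusted p = 0.00504, edgeR). It was called in all 14 alternatives, with log2 fold changes of 2.64 to 3.17.

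*JOX4* (chr2:16012535-16014991, minus strand, 3 exons) had 2.12, 1.65 and 4.15 CPM in *ref4-3* and 1.08, 1.22 and 1.32 CPM in wild type. Each *ref4-3* library lay above each wild-type library, but the log2 fold change of 1.13 ± 0.37 (SE) was not called (adjusted p = 0.0671, edgeR). edgeR's exact test and DESeq2 called it, with adjusted p-values of 0.0287 and 0.0277, and the range over the 14 alternatives was 0.0277 to 0.214. Without *ref4-3* replicate 3, the highest library, the log2 fold change was 0.64.

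*JOX1* (chr3:3503917-3507113, plus strand, 5 exons) was close to the limit of detection. It had 18, 17 and 18 counts in *ref4-3* (0.52, 0.58 and 0.56 CPM) and 15, 4 and 3 counts in wild type (0.48, 0.14 and 0.12 CPM). The *ref4-3* libraries were nearly equal and lay above those of wild type, of which replicate 1 stood apart from the other two, and the log2 fold change of 1.11 ± 0.55 (SE) was not called (adjusted p = 0.173, edgeR). The *ref4-3* libraries all lay higher for 3 of the 10 genes, *JOX1*, *JOX3* and *JOX4*, a share near the 22.5% of all tested genes, and of the 3 only *JOX3* was called by the quasi-likelihood test.

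**Figure D3:**
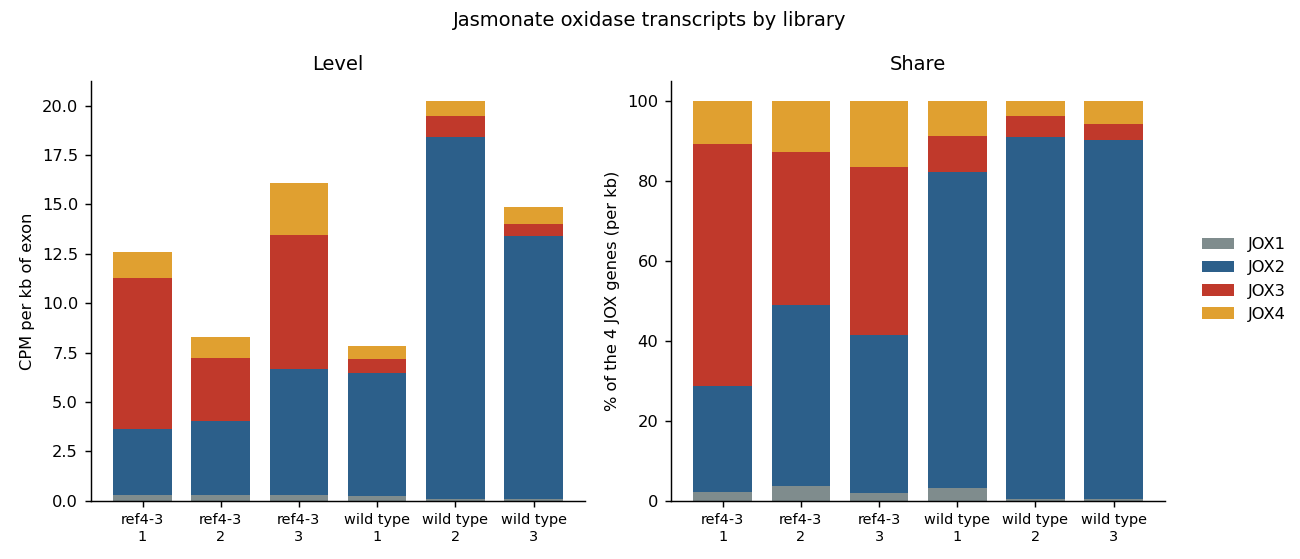
Level of the 4 *JOX* genes in each library (left panel, y axis in CPM per kb of exon, stacked) and the share of each gene in their sum (right panel, y axis in percent), with *ref4-3* libraries left of wild-type libraries. *JOX2* makes up 79.1% to 90.5% of the sum in wild-type libraries and 26.6% to 45.1% in *ref4-3* libraries, where *JOX3* makes up 38.5% to 60.5%.

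The total of the *JOX* family overlapped between genotypes while the shares of *JOX2* and *JOX3* did not. The shares were not tested, and they restate in part the opposite calls of *JOX2* and *JOX3*. The 4 genes summed to 12.6, 8.27 and 16.1 CPM per kb in *ref4-3* and to 7.85, 20.2 and 14.9 CPM per kb in wild type. *JOX2* accounted for 26.6%, 45.1% and 39.6% of this sum in *ref4-3* and for 79.1%, 90.5% and 89.8% in wild type. *JOX3* accounted for 60.5%, 38.5% and 42.2% in *ref4-3* and for 8.94%, 5.30% and 4.09% in wild type. Per kilobase, *JOX3* stood at 2.28, 0.852 and 1.07 times the level of *JOX2* in *ref4-3*, and at 0.113, 0.0586 and 0.0456 times in wild type. The share of *JOX4* was 10.7%, 12.7% and 16.4% in *ref4-3* and 8.74%, 3.82% and 5.65% in wild type. The transcripts of the family are distinct enough to be counted apart for the most part, since the closest pair, *JOX1* and *JOX2*, matched at 79.3% identity over 56.8% of *JOX1*.

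Several of the genes shared an order of libraries that genotype does not set. *CYP94B3*, *CYP94C1*, *IAR3*, *ILL6* and *JOX2* were highest in wild-type replicate 2, then in replicate 3, and lowest in replicate 1, an order that 14.9% of all tested genes had. Within *ref4-3*, these 5 genes and *JOX4* were highest in replicate 3, as 29.4% of tested genes were. Of 13 genes that respond to touch or wounding within minutes, 11, among them *TCH3* and *WRKY40*, had the same order in wild type, and the other 2, *ORA47* and *WRKY33*, were highest in replicate 2, then in replicate 1. The 13 genes summed to 560, 524 and 688 CPM in *ref4-3* and to 1194, 5372 and 1892 CPM in wild type. Of the 13, 11 were called lower in *ref4-3*, against 11.9% of all tested genes. The part of this response in the levels of the 10 genes was not tested.

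Without wild-type replicate 2, the library with the highest sum of these touch and wound genes, the log2 fold change of *CYP94B3* was -2.01, of *CYP94C1* -1.29, of *IAR3* -0.53, of *ILL6* -0.01 and of *JOX2* -1.14, and 0 of the 5 were called (edgeR, adjusted p-values of 0.0852 to 0.977). With all 6 libraries only *JOX2* of the 5 was called. The 5 were grouped by being highest in this library and lowest in wild-type replicate 1. Smaller differences without the former, and larger ones without the latter, follow from that grouping. Over all tested genes, 2737 of 23050 were called lower with all 6 libraries and 1949 of 24216 without wild-type replicate 2. *ST2A* (-1.44, adjusted p = 0.0294) and *JOX3* (3.14, adjusted p = 0.00692) were called without it by the same edgeR test. Without wild-type replicate 1, the wild-type library with the lowest sum, *CYP94B3* (adjusted p = 0.0209), *CYP94C1* (0.0287) and *IAR3* (0.0306) were called lower in addition to *ST2A* and *JOX2*, and *JOX1* (0.0436) was called higher in addition to *JOX3*. In that fit, 2504 of 24163 tested genes were called lower and 1333 higher. Of the genes whose libraries were all higher in *ref4-3*, *JOX3* was highest in wild-type replicate 2, then in replicate 1, the order of *ORA47* and *WRKY33*, whereas *JOX1* was highest in wild-type replicate 1 and *JOX4* in wild-type replicate 3.

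**Figure D4:**
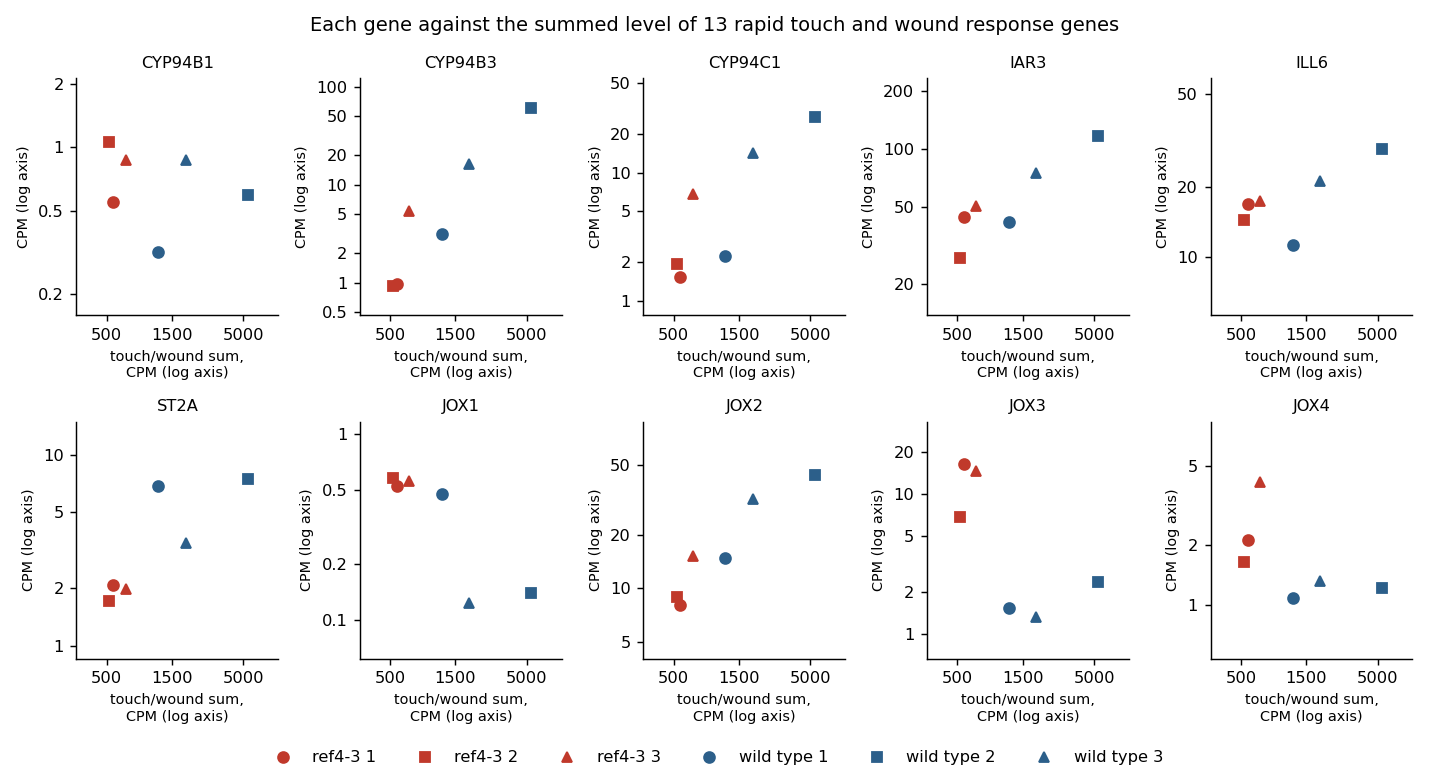
Level of each of the 10 genes (y axis, CPM, log axis with its own range in each panel) against the summed level of 13 rapid touch and wound response genes in the same library (x axis, CPM, log axis), with red for *ref4-3*, blue for wild type and a symbol per replicate number. *CYP94B3* and *JOX2* lie highest in wild-type replicate 2, where the sum is 5372 CPM, while *JOX3* lies between 1.32 and 2.33 CPM across the wild-type range of 1194 to 5372 CPM.

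Among 9 relatives of these enzymes, *ST2B* was called lower, as above, and *CYP94D2* (AT3G56630) was called higher, with 36.5, 28.5 and 28.5 CPM in *ref4-3* and 23.5, 20.4 and 22.9 CPM in wild type (log2 fold change 0.49 ± 0.14 SE, adjusted p = 0.0453, edgeR). The other 7 were not called, and over all tested genes 11.9% were called lower and 8.52% higher. Among them *CYP94B2* (log2 fold change 1.07) and *CYP94D1* (1.38) were under 1 CPM in all 6 libraries, and the amidohydrolase genes had log2 fold changes of 0.31 for *ILR1*, 0.13 for *ILL1*, -0.16 for *ILL2*, 0.07 for *ILL3* and -0.48 for *ILL5*. *ILL5*, which matches *IAR3* at 85.5% identity over 76.5% of the *IAR3* transcript, had 0.582, 0.172 and 0.434 CPM in *ref4-3* and 0.540, 0.487 and 0.661 CPM in wild type.

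**Figure D5:**
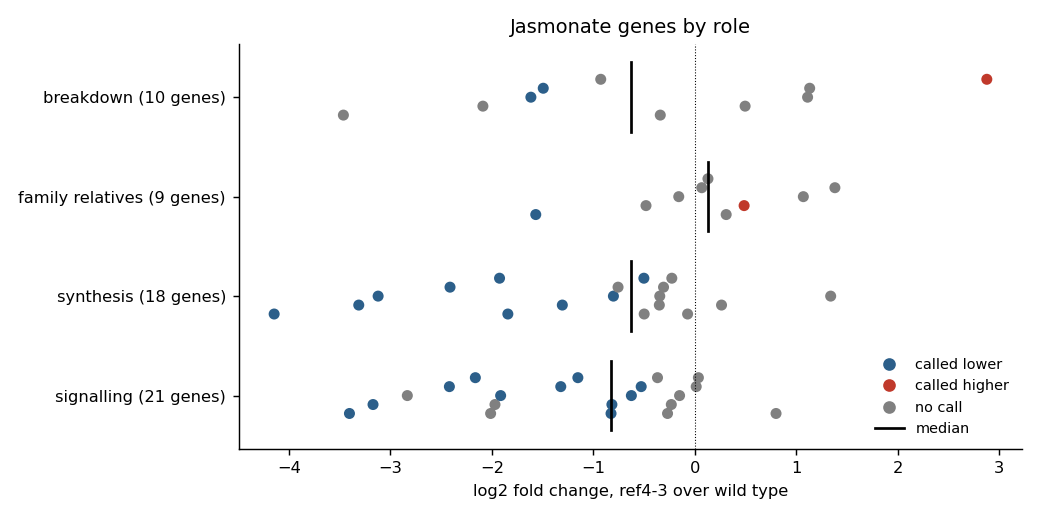
Log2 fold change of *ref4-3* over wild type (x axis) for the breakdown genes, their family relatives, and the genes of jasmonate synthesis and signaling, with a point per gene colored by call and a black line at the median of each list. The medians are -0.63 for breakdown, 0.13 for relatives, -0.63 for synthesis and -0.83 for signaling.

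Jasmonate synthesis and signaling genes, which act before and after the hormone is formed, were called lower wherever the quasi-likelihood test made a call. Both lists were chosen with earlier results of these data known. Of 18 genes of jasmonate synthesis, 9 were called lower and 0 higher (edgeR), against 11.9% and 8.52% of all tested genes. The exact test and DESeq2 also called 0 of the 18 higher, and 0 had an unadjusted p under 0.05 in that direction. The median log2 fold change was -0.63. The strongest decreases were those of the lipoxygenase genes *LOX4* (log2 fold change -4.15, adjusted p = 0.0181) and *LOX3* (-3.31, 0.0278) and of the allene oxide cyclase gene *AOC3* (-3.12, 0.0331). At the other end, the lipase gene *DAD1* (1.34), *LOX6* (0.26) and the thiolase gene *KAT2* (-0.07) were not called. *JAR1*, whose product makes JA-Ile, had 27.3, 28.7 and 26.1 CPM in *ref4-3* and 43.4, 53.2 and 46.6 CPM in wild type and was called lower (-0.80, adjusted p = 0.00688, edgeR).

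Of 21 signaling genes, 11 were called lower and 0 higher (edgeR), against 11.9% and 8.52% of all tested genes. In the higher direction, 1 had an unadjusted p under 0.05 (edgeR), the exact test called 1, *JAZ4*, and DESeq2 called 0. The median log2 fold change was -0.83. *MYC2* fell by 2.42 on the log2 scale (adjusted p = 0.0282), *MYC4* by 0.62 (0.0393) and the receptor gene *COI1* by 0.53 (0.0278), while *MYC3* (-0.27, 0.131) was not called. Of the JAZ repressor genes, 6 of 12 were called lower. *JAZ8* (-3.40, adjusted p = 0.0432) and *JAZ1* (-3.17, 0.0270) were called and *JAZ5* (-2.83, 0.0539) was not. *JAZ4* (0.80), *JAZ11* (0.04) and *MED25* (0.01), the gene for another Mediator subunit that binds MYC2, had the 3 highest values of the list and were not called. *LOX4*, *LOX3*, *AOC3*, *JAZ8*, *JAZ1* and *JAZ5*, the strongest decreases of both lists, were also highest in wild-type replicate 2, then 3, then 1. *JOX3*, at a log2 fold change of 2.88, had a higher value than every listed synthesis and signaling gene.

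The pattern over the 6 libraries was compared with the mean of the 10 genes, as a description over libraries that differ in genotype and depth. This mean joins genes that ran both ways, with r from -0.914 (*JOX1* with *JOX2*) to 0.987 (*CYP94B3* with *JOX2*). It need not resemble a single gene. Among 18421 protein-coding genes averaging 1 CPM or more, the most alike were *AGP5* (Pearson r = 0.995), *PGSIP6* (0.975), *WRKY30* (0.964), *ATPMEPCRB* (0.963) and AT1G77640 (0.963). *AGP5*, which codes for an arabinogalactan protein, had 6.52, 6.32 and 12.9 CPM in *ref4-3* and 4.80, 15.9 and 9.92 CPM in wild type. These 5 genes had log2 fold changes of -1.39 to -0.06, with adjusted p-values of 0.294 to 0.824 (edgeR), and all had the highest wild-type value in replicate 2 and the highest *ref4-3* value in replicate 3. They were picked as the highest r of 18421 genes over only 6 libraries, so their closeness and shared peaks follow from the selection.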

How the data were processed

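RNA was sequenced from rosettes of *ref4-3* and wild-type plants, with 3 libraries per genotype. The libraries were made with a directional poly(A) kit. The authors trimmed reads with fastp (0.23.2), mapped them to TAIR10 with HISAT2 (2.2.1), sorted them with SAMtools (1.17) and deposited raw counts per gene, for which the strand setting and the handling of multiply mapped reads are not given in the sources used here. The table was checked to hold whole numbers for 36796 genes, and its columns were matched to genotype and replicate by name.

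Counts were analyzed with edgeR 4.0.16 in R 4.3.3 (filterByExpr, minimum count 10, minimum total 15; TMM; two-sided quasi-likelihood test; Benjamini-Hochberg adjustment over 23050 genes). CPM use TMM-scaled totals, their logarithms a prior count of 0.5, and CPM per kb the exon length in TAIR10.1. Only the quasi-likelihood step was run on simulated counts, with far fewer changed genes than were called here, and its outcome is not reported. The exact test, DESeq2, the promoter search and the correlations were not run on simulated data. The SD and SE include the spread among libraries, and the floor of 3 counts covers counting error only. Promoter stretches came from TAIR10.1 by locus identifier. The table itself holds no coordinates, and the authors' build is named TAIR10. Transcripts were compared with BLAST+ 2.17.0. An exact permutation test of 3 against 3 libraries cannot give a two-sided p under 0.1, so none is reported.

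The 10 genes and the gene lists were chosen with earlier results of these data known. Genes named are the 10, their family relatives, *MYC2*, *MYC3*, *MYC4*, *COI1*, *JAR1*, *REF4*, the 3 lowest and 3 highest log2 fold changes of each list, and the 5 genes most correlated with the mean of the 10 (z-scored log2 CPM). *TCH3*, *WRKY40*, *WRKY33*, *ORA47* and *PYK10* were named from the marker lists. The names *JOX1* to *JOX4* are not symbols of the annotation used. Alternatives were edgeR's exact test, DESeq2 1.42.0, RLE factors, a minimum of 1 count in place of the filter, a minimum of 10 counts per library, a replicate block, leaving out each library, counts thinned to 26060005 per library and organelle genes left out.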

Additional observations from a re-analysis of the deposited data

How the results depend on the processing

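Of 139 values of single genes under 14 alternatives, 0 changed direction, 123 stayed on the same side of the threshold, 7 lost a call and 9 gained one. With edgeR's exact test and with DESeq2, 3 of the 10 genes were called lower and 2 higher, against 2 and 1 by the quasi-likelihood test. Of 23050 tested genes, the exact test called 3265 lower and 2838 higher and DESeq2 3489 and 2688, against 2737 and 1964. With no filter beyond 1 count, 3 of the 10 were called lower, as were 3303 of 36156 tested genes. When a library was left out, 0 to 5 of the 10 genes were called lower and 1 to 2 higher. Over all tested genes, 588 to 2910 were then called lower and 420 to 1729 higher. The 0 came without *ref4-3* replicate 2, where 1028 of 23915 tested genes were called lower, or without *ref4-3* replicate 3, where 588 of 23609 were. The 5 came without wild-type replicate 1, where 2504 of 24163 were. The median log2 fold change of the 10 genes then ran from -0.96 to -0.27, with -0.27 without wild-type replicate 2. Over all genes, 4701 were called, and 1008 to 4639 when a library was left out, the fewest without *ref4-3* replicate 3.

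Whether a replicate number marks a shared batch is not given in the sources used here. Deviations from the group means of libraries with the same number correlated at -0.0979, -0.0240 and 0.207. Libraries with different numbers correlated at -0.135 to 0.133, and so few pairs cannot decide whether the samples are paired. A fit with the replicate number as a block called 2064 of 23050 genes lower and 1298 higher, 3362 in total. Of the 10, it called 2 lower and 1 higher, with a median log2 fold change of -0.54. It changed 0 of the calls on the 10 genes. *JOX1* was not tested where 10 counts were required in every library. At 3 to 18 counts per library, *JOX1* allows no firm statement on its level in wild type.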
